A study of Mus musculus with 9 samples.

Results

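Myosin heavy chain genes were examined in C2C12 myotubes, the multinucleated muscle cells formed by a mouse myoblast line on differentiation. Members were all rows of the deposited table whose symbol was Myh followed by digits only, which gave 9 genes of 10716. The 9 libraries formed 3 groups of 3. Over 24 h, myotubes were given 50 µM dexamethasone with 10 µM THSG, 50 µM dexamethasone, or vehicle. Dexamethasone, a glucocorticoid drug, is a standard means of making cultured muscle waste. THSG is an abbreviation that the labels do not spell out, and no group of these libraries received it alone. All groups came from 1 cell line, and the labels do not say whether replicates were separate cultures, so p-values measure the spread between libraries, which may be technical.

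Myosin heavy chain is the motor of the thick filament, and each isoform is encoded by its own gene. In rodent limb muscle the embryonic (Myh3) and perinatal (Myh8) isoforms come first in development and are replaced by the adult fast isoforms IIA (Myh2), IIX (Myh1) and IIB (Myh4) or by the slow isoform (Myh7), which is also the beta isoform of the heart. Myh13 encodes the isoform of extraocular muscle, while Myh9 and Myh10 encode the non-muscle myosins IIA and IIB, which pull on actin in the cell cortex and at cell division. The table thus held 7 sarcomeric and 2 non-muscle members. Their Ensembl identifiers in the table are ENSMUSG00000056328 (Myh1), ENSMUSG00000033196 (Myh2), ENSMUSG00000020908 (Myh3), ENSMUSG00000057003 (Myh4), ENSMUSG00000053093 (Myh7), ENSMUSG00000055775 (Myh8), ENSMUSG00000022443 (Myh9), ENSMUSG00000020900 (Myh10) and ENSMUSG00000060180 (Myh13). Levels of Myh6, Myh15, Myh11 and Myh14 were not analysed here.

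Values were taken to be FPKM, fragments scaled to transcript length and library size. Every value of the table lay above 1 FPKM, so each member listed had passed a filter on low values in all 9 libraries. Library depth is unknown, and summed FPKM per library spanned 400218 to 422379. The myotube label was checked with 12 markers, all of which were listed. Their summed level was 8980 to 9778 FPKM in the 6 dexamethasone-treated libraries and 8395 to 9060 FPKM in vehicle libraries, and it follows a few high genes. By the limma rule given below, 6 of the 12 were called higher and 2 lower for dexamethasone against vehicle. Of all genes, 12.7% were called higher and 20.9% lower. Fkbp5, a direct target of the glucocorticoid receptor, averaged 98.6 FPKM in dexamethasone plus THSG libraries, 97.8 FPKM in dexamethasone libraries and 6.57 FPKM in vehicle libraries. Dexamethasone replicate 3 stood apart from the rest on the second principal component, at -14.6 against -4.49 to 7.29 in the other 8 libraries, and results that turn on it are given with and without it.

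The fast IIX gene and the slow gene were both higher after dexamethasone than after vehicle, the fast IIB gene was not called, and both non-muscle genes were lower. Dexamethasone raised Myh7 3.15-fold (95% interval 2.73 to 3.64) and Myh8 2.09-fold (1.83 to 2.39), with 3 libraries a group. Myh1 was 1.70-fold higher (1.58 to 1.84), Myh2 1.59-fold (1.43 to 1.76) and Myh13 1.33-fold (1.11 to 1.59). Myh9 fell to 0.786 (0.725 to 0.852) and Myh10 to 0.860 (0.777 to 0.951) of their vehicle levels. The Myh10 call was lost under other scalings of the libraries and, like that of Myh13, when some single libraries were left out. Myh3 and Myh4 passed no threshold. Adding THSG to dexamethasone called no member in either direction.

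Of the 9 members, 7 were called between dexamethasone and vehicle by limma at a Benjamini-Hochberg adjusted p under 0.05, where the same rule called 33.6% of all genes of the table. Higher calls made up 5 members, against 12.7% of all genes, and lower calls 2 members, against 20.9% of all genes. The lower count is about the share of all genes called lower. The groups did not overlap for the same 7 members, against 45.9% of all genes. Without dexamethasone replicate 3, 5 members were called, 4 higher and 1 lower, since Myh13 and Myh10 lost their calls.

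**Figure D1:**
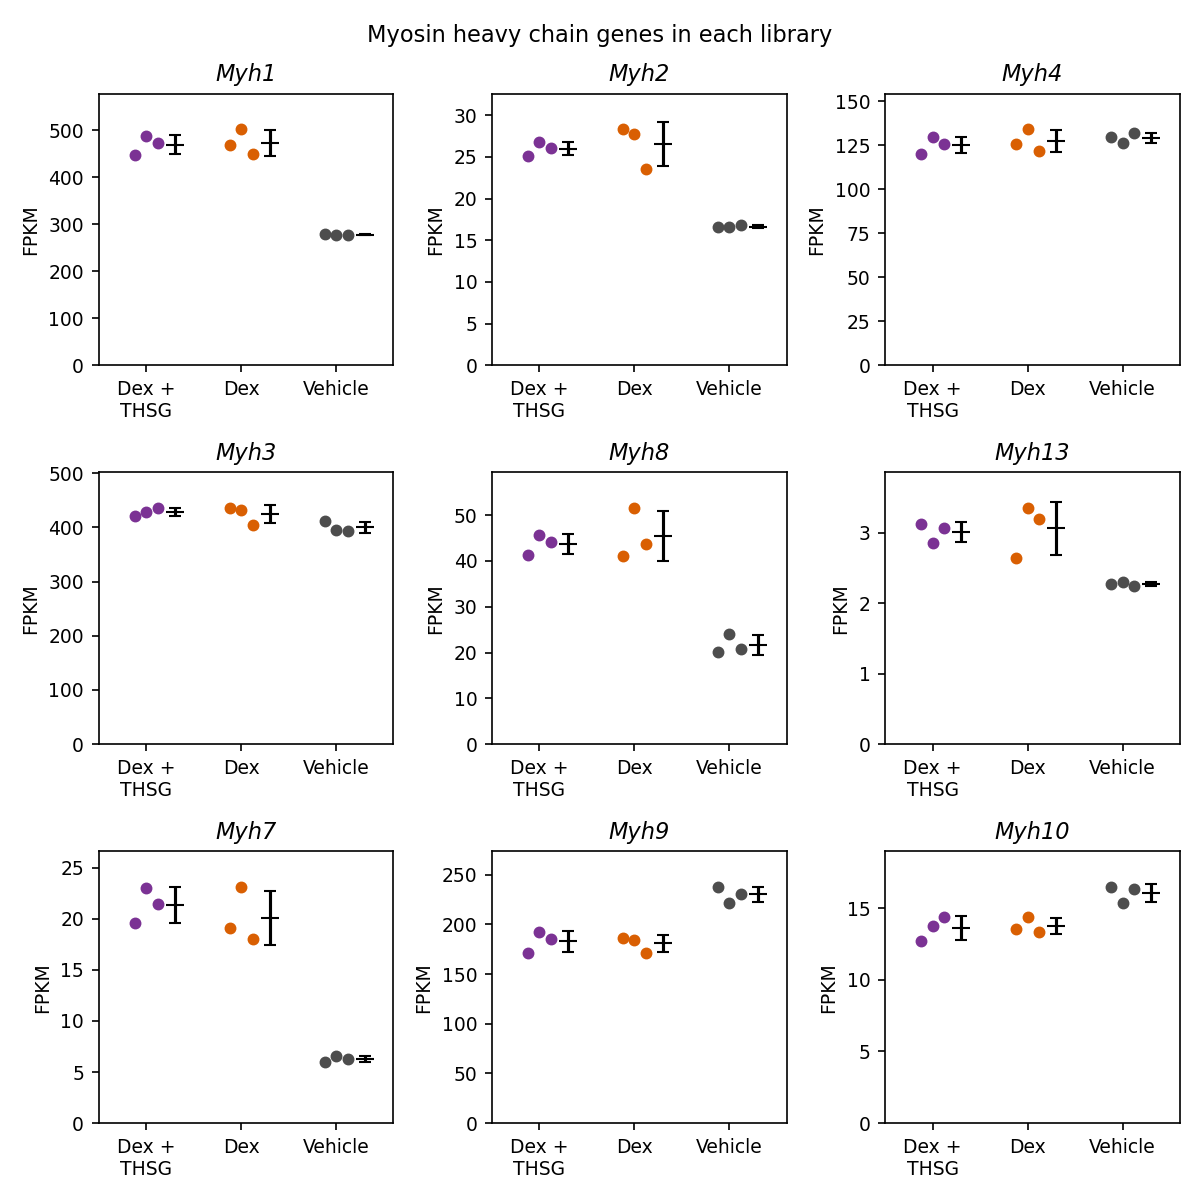
FPKM of each myosin heavy chain gene in each library (points) with the group mean and SD (bars, n = 3), for dexamethasone plus THSG, dexamethasone and vehicle. Myh1, Myh2, Myh7, Myh8 and Myh13 sit higher, and Myh9 and Myh10 lower, in all 6 dexamethasone-treated libraries than in the 3 vehicle libraries.

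Myh1, the fast IIX isoform, had 468, 503 and 449 FPKM in dexamethasone libraries, against 278, 277 and 276 FPKM in vehicle libraries. All 3 vehicle libraries lay far below the lowest dexamethasone library and close to each other. The difference was 0.77 on the log2(FPKM + 0.1) scale (SE 0.051, limma adjusted p = 4.22e-07), the scale of all log2 differences given here. Myh2, the fast IIA isoform, was expressed at a much lower level, with 28.4, 27.8 and 23.6 FPKM in dexamethasone libraries and 16.6, 16.5 and 16.8 FPKM in vehicle libraries. Its log2 difference of 0.67 (SE 0.069, limma adjusted p = 1.66e-05) was close in size to that of Myh1. Myh4, the fast IIB isoform, had 126, 134 and 122 FPKM in dexamethasone libraries and 130, 126 and 132 FPKM in vehicle libraries. These 2 groups overlapped, and the log2 difference of Myh4 was -0.02 (95% interval -0.13 to 0.08, limma adjusted p = 0.752). Its sign turned under other scalings of the libraries, to 0.02 with median-ratio factors and 0.01 with quantile normalization, neither of them called.

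Myh7, the slow isoform, had the largest difference of the 9 members. It had 19.1, 23.1 and 18.0 FPKM in dexamethasone libraries, against 5.96, 6.56 and 6.28 FPKM in vehicle libraries, a log2 difference of 1.66 (SE 0.095, limma adjusted p = 1.24e-07). No dexamethasone library came near the vehicle range, and the rise ranked 49 among all 10716 genes. Myh7b, a slow-type myosin gene outside the rule for members, had 5.82 ± 0.31 FPKM in dexamethasone libraries and 4.06 ± 0.14 FPKM in vehicle libraries (SD, n = 3 each), with a log2 difference of 0.51 (limma adjusted p = 0.00185).

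Myh8, the perinatal isoform, and Myh3, the embryonic isoform, parted. Myh8 had 41.0, 51.6 and 43.7 FPKM in dexamethasone libraries, against 20.0, 24.1 and 20.8 FPKM in vehicle libraries, with no overlap and a log2 difference of 1.06 (SE 0.089, limma adjusted p = 2.71e-06). Myh3 had 436, 432 and 405 FPKM in dexamethasone libraries and 412, 394 and 393 FPKM in vehicle libraries. Dexamethasone replicate 3 fell inside the vehicle range, and the log2 difference of Myh3 was 0.09 (95% interval -0.01 to 0.18, limma adjusted p = 0.164), or 0.12 without that library (limma adjusted p = 0.0766). With median-ratio scaling Myh3 was called, at 0.13 (limma adjusted p = 0.0318). Myh13 was the lowest member, with 2.64, 3.35 and 3.19 FPKM in dexamethasone libraries and 2.28, 2.29 and 2.24 FPKM in vehicle libraries. Its log2 difference of 0.41 (SE 0.12, limma adjusted p = 0.0211) lost its call without dexamethasone replicate 3 (0.37, limma adjusted p = 0.0650), without dexamethasone replicate 2 (0.34, limma adjusted p = 0.0794) or without vehicle replicate 3 (0.40, limma adjusted p = 0.0531).

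Both non-muscle members were lower with dexamethasone. Myh9 had 187, 184 and 171 FPKM in dexamethasone libraries, against 238, 222 and 231 FPKM in vehicle libraries, a log2 difference of -0.35 (SE 0.053, limma adjusted p = 0.000364). Myh10 had 13.6, 14.4 and 13.3 FPKM in dexamethasone libraries, against 16.5, 15.3 and 16.3 FPKM in vehicle libraries. Its groups did not overlap, but the log2 difference of -0.22 (SE 0.066, limma adjusted p = 0.0250) lost its call under 3 other scalings (adjusted p of 0.0735 with median-ratio factors, 0.0604 with equal sums and 0.0714 with quantile normalization). It also lost its call without dexamethasone replicate 3 (-0.20, limma adjusted p = 0.0753), dexamethasone replicate 1 (-0.21, limma adjusted p = 0.0673), vehicle replicate 1 (-0.20, limma adjusted p = 0.0784) or vehicle replicate 3 (-0.21, limma adjusted p = 0.0709).

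**Figure D2:**
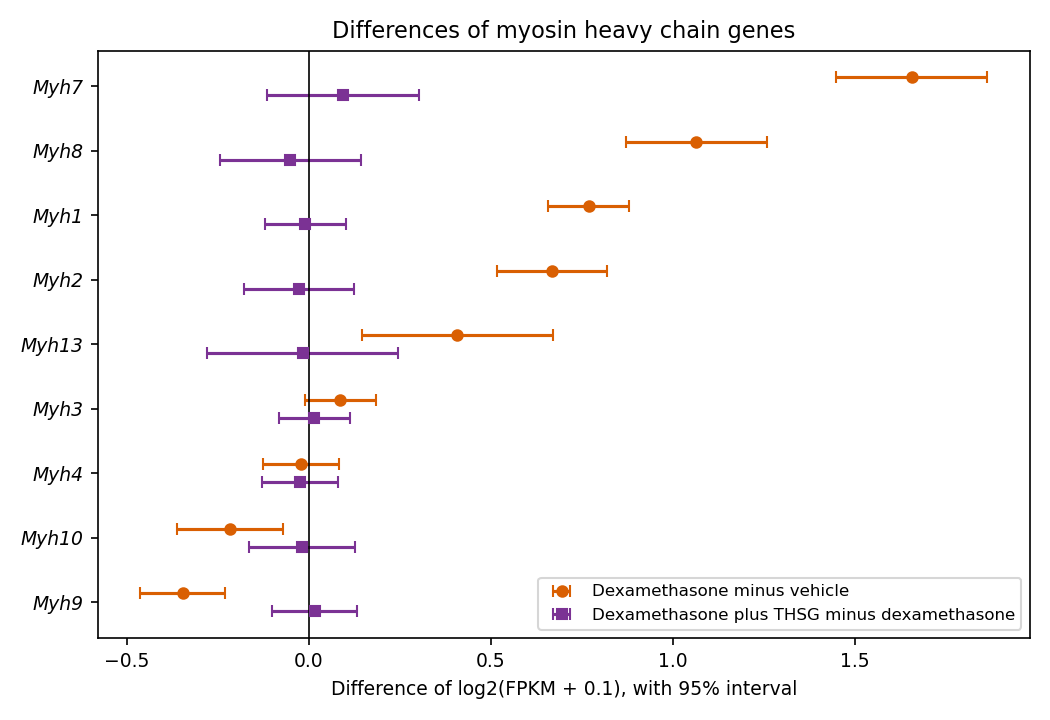
Difference of log2(FPKM + 0.1) for each member with its 95% interval from limma, for dexamethasone plus THSG minus dexamethasone (squares) and dexamethasone minus vehicle (circles). The circles run from 1.66 for Myh7 to -0.35 for Myh9, while every square's interval includes 0.

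The isoform make-up of the libraries was described by each sarcomeric member's share of their summed FPKM, with no test. The sum of the 7 sarcomeric members was 1117 ± 35 FPKM in dexamethasone plus THSG libraries, 1120 ± 56 FPKM in dexamethasone libraries and 853 ± 10 FPKM in vehicle libraries (SD, n = 3 each). Myh1 made up 42.0% ± 0.56 in dexamethasone plus THSG libraries, 42.2% ± 0.51 in dexamethasone libraries and 32.5% ± 0.28 in vehicle libraries (SD, n = 3 each). Myh3 made up 38.4% ± 0.81 in dexamethasone plus THSG libraries, 37.9% ± 1.1 in dexamethasone libraries and 46.9% ± 0.65 in vehicle libraries (SD, n = 3 each). The leading isoform by FPKM was therefore Myh1 in all 6 dexamethasone-treated libraries and Myh3 in all 3 vehicle libraries. Myh1 over Myh3 averaged 1.10 in dexamethasone plus THSG libraries, 1.11 in dexamethasone libraries and 0.694 in vehicle libraries. Which of these genes leads depends on the scaling to length and on the treatment of shared reads, neither of which is given in the sources used here. Myh4 made up 11.2% ± 0.097 in dexamethasone plus THSG libraries, 11.4% ± 0.13 in dexamethasone libraries and 15.1% ± 0.35 in vehicle libraries (SD, n = 3 each), a smaller share with dexamethasone at a level that was not called. Myh7 took 1.91% ± 0.098 in dexamethasone plus THSG libraries, 1.79% ± 0.15 in dexamethasone libraries and 0.735% ± 0.043 in vehicle libraries (SD, n = 3 each), so the slow isoform stayed a minor one in each group. The 3 adult fast members together took 55.5% in dexamethasone plus THSG libraries, 56.0% in dexamethasone libraries and 49.6% in vehicle libraries. The 2 developmental members took 42.3% in dexamethasone plus THSG libraries, 42.0% in dexamethasone libraries and 49.4% in vehicle libraries. The ratio of summed sarcomeric to summed non-muscle FPKM was 5.69 ± 0.15 in dexamethasone plus THSG libraries, 5.76 ± 0.16 in dexamethasone libraries and 3.47 ± 0.089 in vehicle libraries (SD, n = 3 each). In these bulk samples, fewer cells of a type and less RNA per cell cannot be told apart.

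**Figure D3:**
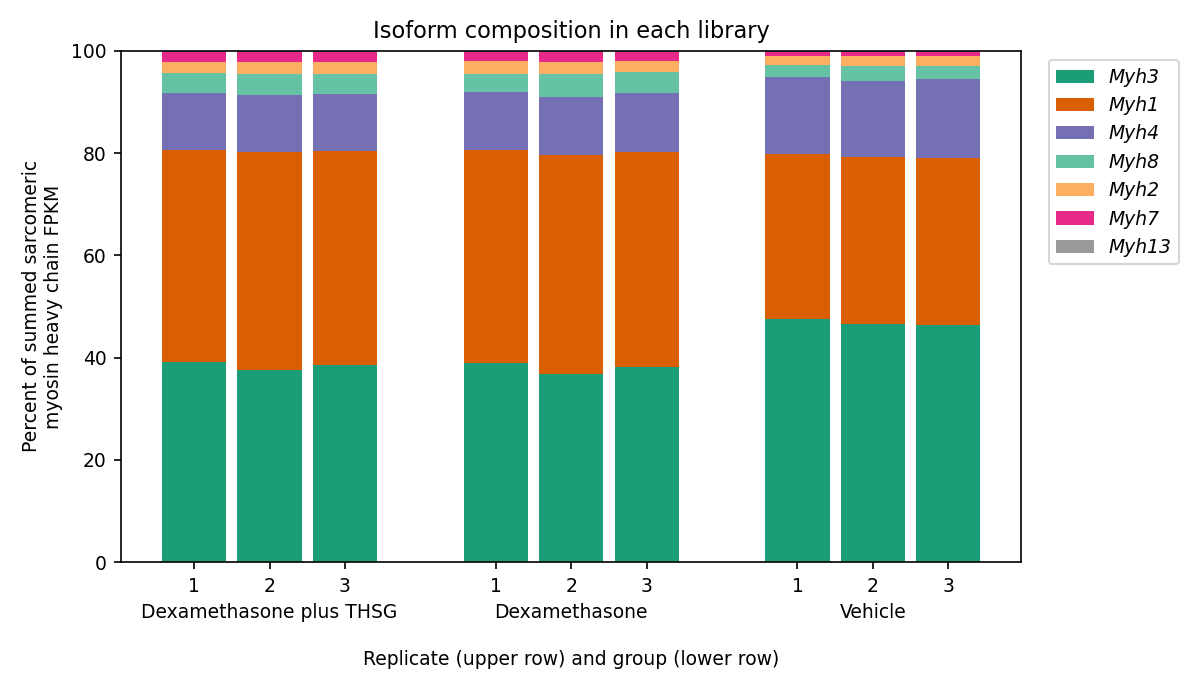
Each sarcomeric member's percent of the summed sarcomeric myosin heavy chain FPKM, stacked for each of the 9 libraries, by group. Myh1 is the widest band in the 6 dexamethasone-treated libraries, at 41.6% to 42.8%, and Myh3 in the 3 vehicle libraries, at 46.4% to 47.6%.

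The order of levels differed between groups at 2 places only. With or without THSG, dexamethasone libraries ran Myh1, Myh3, Myh9, Myh4, Myh8, Myh2, Myh7, Myh10 and Myh13, whereas vehicle libraries had Myh3 before Myh1 and Myh10 before Myh7. Neighbours in these orders did not overlap within a group. The closest were Myh2 and Myh10 in vehicle libraries, whose nearest values were 16.54 and 16.47 FPKM. Comparing levels of different genes rests on taking the values to be scaled to length, by lengths that are not given in the sources used here.

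Ratios between members within a library do not depend on the scaling between libraries. The log2 ratio of Myh7 to Myh1 was 0.89 higher in dexamethasone than in vehicle libraries, that of Myh1 to Myh4 was 0.79 higher, and that of Myh7 to Myh3 was 1.57 higher. Myh3 relative to Myh8 was 0.98 lower on the log2 scale, and Myh9 relative to Myh1 was 1.12 lower. The ratio of Myh10 to Myh9 was 0.13 higher, the smallest of the 6 differences. In each of these 6 pairs the 3 dexamethasone libraries did not overlap the 3 vehicle libraries, and the exact two-sided permutation p was 0.1, the smallest that 3 against 3 can give (0.15 after adjustment over 18 tests). Between dexamethasone plus THSG and dexamethasone all 6 ratios overlapped, with exact permutation p of 0.2 to 0.6.

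Members on chromosome 11 stand on the plus strand in the order Myh3, Myh2, Myh1, Myh4, Myh8 and Myh13 in the GENCODE annotation of GRCm38, with Myh10 farther along, while Myh7 lies on chromosome 14 and Myh9 on chromosome 15. Myh2, Myh1, Myh4 and Myh8 are neighbours, yet only Myh4 among them was not called. Their promoters are shown because a stretch of 14 bases, in capitals, was the longest run that all 4 windows held. The RefSeq windows (GRCm38.p6) reach 250 bases before to 50 bases after the start, of which the 250 bases before it are printed, 5′ to 3′. On the plus strand these are Myh1 at chr11:67199852-67200101, Myh2 at chr11:67170777-67171026, Myh4 at chr11:67237562-67237811 and Myh8 at chr11:67276874-67277123. The slow gene Myh7 is also shown, on the minus strand at chr14:54994627-54994876, before the more upstream of its 2 RefSeq starts. The letters GGAATG are in capitals in Myh7 only. They are not particular to it, since they also stand, in lower case, in the printed stretches of Myh1 and, on the other strand, Myh4.
Myh1: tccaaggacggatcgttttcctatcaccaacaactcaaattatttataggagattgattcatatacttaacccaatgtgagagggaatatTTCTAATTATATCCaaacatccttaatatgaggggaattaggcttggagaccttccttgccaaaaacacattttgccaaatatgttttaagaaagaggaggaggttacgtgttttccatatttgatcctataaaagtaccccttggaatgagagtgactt
Myh2: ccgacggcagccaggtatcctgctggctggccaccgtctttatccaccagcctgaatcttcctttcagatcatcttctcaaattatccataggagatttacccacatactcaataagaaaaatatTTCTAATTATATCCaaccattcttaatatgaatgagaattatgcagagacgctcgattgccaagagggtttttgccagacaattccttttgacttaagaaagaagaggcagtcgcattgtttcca
Myh4: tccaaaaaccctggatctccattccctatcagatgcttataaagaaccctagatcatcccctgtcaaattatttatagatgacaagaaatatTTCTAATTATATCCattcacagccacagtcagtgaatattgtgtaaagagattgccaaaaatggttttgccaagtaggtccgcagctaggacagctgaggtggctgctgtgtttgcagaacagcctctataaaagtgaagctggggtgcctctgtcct
Myh8: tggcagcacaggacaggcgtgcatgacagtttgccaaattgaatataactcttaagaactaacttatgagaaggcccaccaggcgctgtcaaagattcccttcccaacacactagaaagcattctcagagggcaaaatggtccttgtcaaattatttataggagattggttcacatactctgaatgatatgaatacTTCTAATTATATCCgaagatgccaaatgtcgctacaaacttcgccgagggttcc
Myh7: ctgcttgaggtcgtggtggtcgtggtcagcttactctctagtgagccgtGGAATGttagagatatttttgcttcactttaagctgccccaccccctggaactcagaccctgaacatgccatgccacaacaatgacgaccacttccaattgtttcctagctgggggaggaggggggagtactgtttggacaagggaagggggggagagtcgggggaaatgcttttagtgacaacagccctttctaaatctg

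The run of 14 bases lay 160 bases before the start in Myh1, 125 in Myh2, 158 in Myh4 and 54 in Myh8, counted to its first base. Searched on both strands, it was present in 4 of 32851 RefSeq promoter windows of the same length (0.0122%), which were those of these 4 genes. Its presence in these 4 was fixed by how it was chosen. How often other runs of this length occur was not counted, so the share does not test whether the run is particular to them. The run was thus held by 3 members that rose with dexamethasone and by 1 that was not called. The glucocorticoid receptor half-site AGAACA, or TGTTCT on the other strand, was present in 19.0% of all windows and, among the members, in that of Myh4 alone. The MEF2 motif, in 3.19% of all windows, was matched in Myh1, Myh4 and Myh8, and its matches there overlapped TATAAA on the minus strand, letters held by 13.6% of all windows. The E-box CANNTG, the letters bound by myogenic factors, was in 72.3% of all windows. It was in those of all members except Myh1 and Myh2, which is about the share of all windows. The CArG motif, a run of A and T between CC and GG, was in 1.63% of all windows and in those of Myh4 and Myh13. GGAATG, the core of the MCAT element, was in 14.7% of all windows and in those of Myh1, Myh4, Myh7 and Myh10, and it was added after the members' values were seen. These are matches of letters in short windows and not measured binding.

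**Figure D4:**
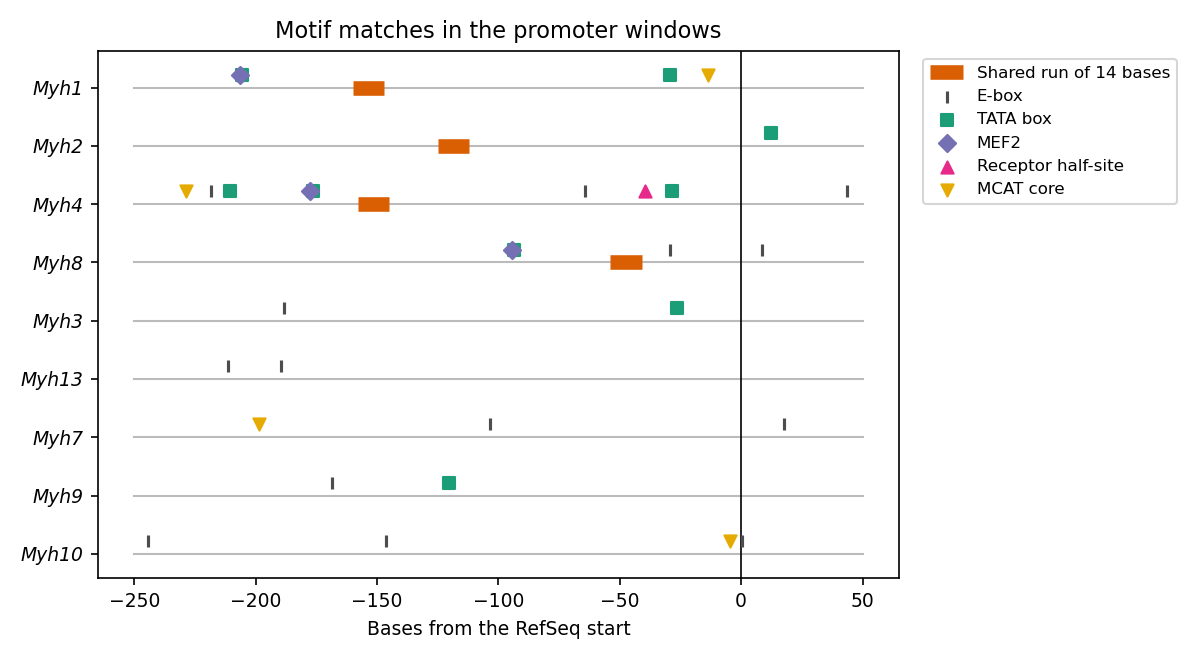
Matches of motifs (marks) and of the shared run of 14 bases (bars) in the promoter window of each member, by distance in bases from the RefSeq start, with both strands shown. The run is in the windows of Myh1, Myh2, Myh4 and Myh8, and the glucocorticoid receptor half-site is marked in that of Myh4 alone. Matches of the CArG motif are not drawn.

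Near-identical coding sequence limits how far reads can be told apart between members. The longest stretch shared by the coding sequences of Myh1, which rose, and Myh4, which was not called, was 161 bases, at coding positions 3250 to 3410 of Myh1 and 3241 to 3401 of Myh4 in the GENCODE transcripts of GRCm38. It is shown because a read inside it cannot be given to either gene, with no capitals since it is identical throughout.
Myh1 and Myh4: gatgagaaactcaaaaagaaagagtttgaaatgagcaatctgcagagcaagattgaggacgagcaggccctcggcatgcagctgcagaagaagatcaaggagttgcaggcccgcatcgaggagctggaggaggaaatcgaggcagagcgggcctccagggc

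Of all windows of 50 coding bases, 28.1% in Myh2, 27.9% in Myh1, 23.9% in Myh7, 22.7% in Myh8 and 19.6% in Myh4 were also found in another myosin heavy chain gene. For Myh7 each such window was found in Myh6. The share was 8.81% in Myh13, 4.99% in Myh3, 1.25% in Myh9 and 1.22% in Myh10. Myh1 shared 20.5% of its windows with Myh2 and 11.0% with Myh4. The read length and the treatment of reads with several matches are not given in the sources used here. The levels of the sarcomeric members are therefore uncertain, by an amount that these percentages do not give. A low member that shares windows with a high one, as Myh2 does with Myh1, can be affected more. Myh13 held 0.270%, 0.273% and 0.266% of the sarcomeric sum in dexamethasone plus THSG, dexamethasone and vehicle libraries. Whether reads of higher members make up part of its level was not tested.

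Antisense genes of the same cluster were listed too, and were added after the annotation was seen. Myhas, on the minus strand across part of Myh1, overlaps exons of Myh1 by 515 of its 2027 exon bases. It had 80.3 ± 10 FPKM in dexamethasone plus THSG libraries, 79.7 ± 4.3 FPKM in dexamethasone libraries and 51.4 ± 4.2 FPKM in vehicle libraries (SD, n = 3 each), and its log2 difference between dexamethasone and vehicle was 0.63 (limma adjusted p = 0.000155). 2310065F04Rik, between Myh3 and Myh2 and overlapping neither, averaged 3.09 ± 0.50 FPKM in dexamethasone libraries and 1.86 ± 0.44 FPKM in vehicle libraries (SD, n = 3 each), with a log2 difference of 0.72 (limma adjusted p = 0.00738). Its vehicle values of 2.28, 1.89 and 1.41 FPKM lay near the floor of the table. This call was not checked under the alternatives run for the members. 9430073C21Rik, which overlaps exons of Myh2 by 237 of its 2173 exon bases, averaged 1.88 FPKM in dexamethasone libraries and 1.46 FPKM in vehicle libraries, and was not called (limma adjusted p = 0.139). The library kit keeps strand, but the strand setting of the counting is not given in the sources used here, so Myh1 and Myhas, and Myh2 and 9430073C21Rik, may share reads.

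Myotubes given both compounds were next set against those given dexamethasone, which asks what THSG changed on top of the glucocorticoid. None of the 9 members was called by limma at an adjusted p under 0.05, as was 0.0% of all genes, and none reached an unadjusted p under 0.05, against 7.25% of all genes. The 2 groups overlapped for each member, whereas 13.3% of all genes did not overlap. Myh7 had 19.5, 23.0 and 21.5 FPKM in dexamethasone plus THSG libraries, against 19.1, 23.1 and 18.0 FPKM in dexamethasone libraries. Its log2 difference over all libraries was 0.09, with a 95% interval of -0.12 to 0.30. It was 0.02 without dexamethasone replicate 3 (limma adjusted p = 0.996), 0.20 without dexamethasone replicate 2 (limma unadjusted p = 0.0414, adjusted p = 0.700), 0.15 without dexamethasone plus THSG replicate 1 and 0.04 without dexamethasone plus THSG replicate 2. Myh1 had 448, 488 and 473 FPKM in dexamethasone plus THSG libraries, against 468, 503 and 449 FPKM in dexamethasone libraries, a log2 difference of -0.01 with a 95% interval of -0.12 to 0.10. Myh8 had the lowest value, -0.05 (95% interval -0.25 to 0.14). Myh4, at -0.02, had an interval of -0.13 to 0.08, and Myh3, at 0.01, one of -0.08 to 0.11. The widest interval was that of Myh13, -0.28 to 0.24. Smaller differences than these intervals allow were not detectable with 3 libraries a group, and a missed threshold does not show that the groups were alike.

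Dexamethasone plus THSG was also set against vehicle, a comparison that shares its vehicle libraries with the one above. Of the 9 members 7 were called, against 29.1% of all genes, with 5 higher (12.1% of all genes) and 2 lower (17.0% of all genes). Myh7 was 1.75 higher on the log2 scale, Myh8 1.01, Myh1 0.76, Myh2 0.64 and Myh13 0.39, while Myh9 fell by 0.33 and Myh10 by 0.24. For Myh13 (limma adjusted p = 0.0292) and Myh10 (limma adjusted p = 0.0182) the call again rested on single libraries: without dexamethasone plus THSG replicate 1 they had limma adjusted p of 0.0813 and 0.0710, and without vehicle replicate 1 of 0.0641 and 0.0601. Without vehicle replicate 3 they had limma adjusted p of 0.0709 and 0.0573. Myh13 also lost its call without vehicle replicate 2 (limma adjusted p = 0.0658) or dexamethasone plus THSG replicate 3 (limma adjusted p = 0.0786). Myh3 had 420, 429 and 436 FPKM in dexamethasone plus THSG libraries and 412, 394 and 393 FPKM in vehicle libraries. Its groups did not overlap, as in 8 of 9 members against 43.1% of all genes, but it was not called (0.10, limma adjusted p = 0.118). With median-ratio scaling it was called, at 0.13 (limma adjusted p = 0.0344).

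Partner genes were described in lists by fibre type, beside all genes of the table, of which 12.7% were called higher and 20.9% lower for dexamethasone against vehicle, with a median log2 difference of -0.05. Of 14 fast-fibre genes 10 rose, none fell, and the median was 0.27. Atp2a1, the fast calcium pump of the sarcoplasmic reticulum, rose to 433 FPKM in dexamethasone libraries, against 281 FPKM in vehicle libraries (0.62, limma adjusted p = 1.46e-06). Pgam2, a muscle glycolytic enzyme, rose by 0.54, Casq1, the fast calcium buffer, by 0.38 and Myom2, an M-band protein, by 0.31 on the log2 scale. Slow-fibre genes rose in 9 of 13 cases and fell in none, against the same shares of all genes, with a median of 0.25. Mybpc1, slow myosin binding protein C, had 10.7 FPKM in dexamethasone libraries and 4.82 FPKM in vehicle libraries (1.13, limma adjusted p = 2.71e-06). Myl6b, a slow myosin light chain, rose by 0.76, Ankrd2, a stretch-responsive protein of slow muscle, by 0.75 and Casq2, the cardiac and slow calcium buffer, by 0.44. Fast and slow partners thus each rose in part, with medians under the difference of Myh1 or Myh7.

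Thick filament assembly and upkeep genes rose in 11 of 16 cases and fell in none, against 12.7% of all genes higher and 20.9% lower. The median was 0.27, and this list shares Mybpc1, Mybpc2 and Myom2 with the fibre-type lists. Titin (Ttn), the molecular ruler of the sarcomere, rose by 0.51 (limma adjusted p = 7.88e-05). Trim63, the ubiquitin ligase MuRF1 that marks myosin heavy chain protein for breakdown, rose to 32.9 FPKM in dexamethasone libraries, against 20.3 FPKM in vehicle libraries (0.69, limma adjusted p = 2.66e-05). Only RNA was measured, so myosin protein is not described here.

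Among regulators of fibre type and myosin genes 9 of 23 were higher and 2 lower, against 12.7% of all genes higher and 20.9% lower, and the median was 0.11. Six4, a homeobox factor of the fast programme, rose by 0.84, Maf, a large Maf factor of fast IIB fibres, by 0.70, and Tead4, which binds the MCAT element, by 0.40. Nfix, a factor of the fetal muscle programme, fell by 0.47. Non-muscle myosin partners rose in 7 of 18 cases and fell in 4, with a median of 0.13, and the lower count is about the share of all genes called lower. Svil, a myosin II-binding membrane protein, rose by 0.58 and Actn1, an actin crosslinker, by 0.44. Tpm4, a cytoskeletal tropomyosin, fell by 0.49 and Anln, the anillin of the cytokinetic ring, by 1.61 (2.50 FPKM in dexamethasone libraries, 7.86 FPKM in vehicle libraries, limma adjusted p = 4.44e-07). No gene of these lists was called between dexamethasone plus THSG and dexamethasone by limma.

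**Figure D5:**
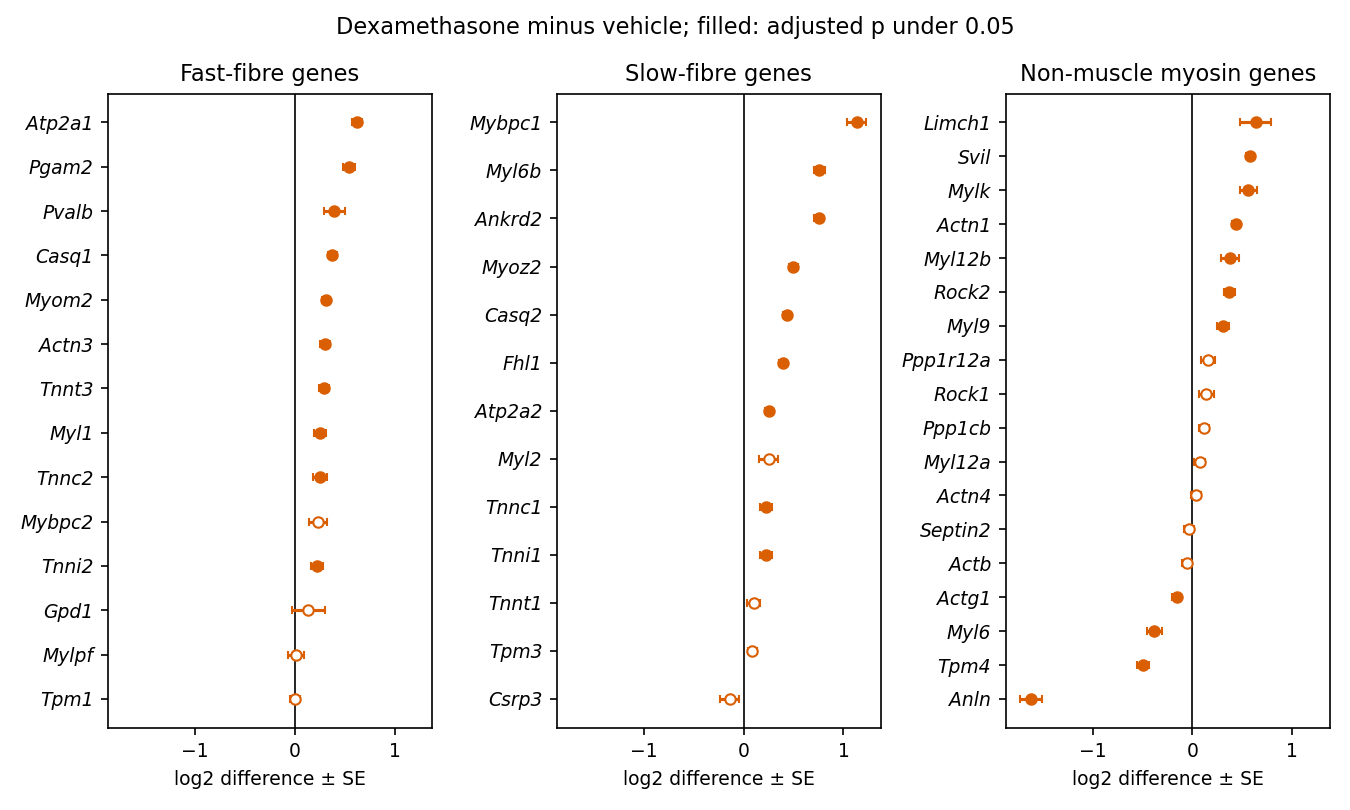
Difference of log2(FPKM + 0.1), dexamethasone minus vehicle, with its SE from limma, for genes of the fast-fibre, slow-fibre and non-muscle myosin lists, with filled points for an adjusted p under 0.05. Fast and slow genes lie at or right of 0 except Csrp3, which was not called, and non-muscle genes lie on both sides, down to Anln at -1.61.

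Lists of cell cycle genes and of markers of other cells were set beside the non-muscle members. For these lists too, 12.7% of all genes were called higher and 20.9% lower. All 11 cell cycle genes present were lower with dexamethasone (median -1.26), and their summed level was 45.5 to 49.6 FPKM in dexamethasone libraries and 101 to 109 FPKM in vehicle libraries. Top2a, the topoisomerase of dividing cells, fell by 1.89 and Cdc20, a mitotic activator, by 1.67. Of 8 myoblast and reserve cell markers 2 rose and 5 fell, and their sum was 646 to 680 FPKM in dexamethasone libraries and 721 to 790 FPKM in vehicle libraries. Most of that sum was Itga7 (418 FPKM in dexamethasone and 467 FPKM in vehicle libraries) and Cdh15 (106 and 127 FPKM). Both were named after their values were seen, and Cdh15 is also among the myotube markers. Vcam1 fell by 1.67 and Cd34 by 1.17, whereas Myf5, a myogenic factor of myoblasts, rose by 1.05 and Sdc4 by 0.41. Of 6 fibroblast markers 2 rose and 4 fell, with sums of 2426 to 2581 FPKM in dexamethasone libraries and 2981 to 3664 FPKM in vehicle libraries. Most of it was S100a4, named after its value was seen, at 1868 FPKM in dexamethasone and 2482 FPKM in vehicle libraries. Such sums follow a few high genes and do not measure cell numbers. Col1a1 fell by 1.51 and Col3a1 by 0.79, while Postn rose by 2.16 and Pdgfra by 1.31. The part of these cells in the fall of Myh9 and Myh10 was not tested.

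Smooth muscle and heart markers were looked at because Myh7 is also a cardiac gene. Of 7 smooth muscle markers 3 rose and 2 fell, against 12.7% of all genes higher and 20.9% lower, with sums of 1861 to 1936 FPKM in dexamethasone libraries and 1835 to 1994 FPKM in vehicle libraries. Lmod1, an actin nucleator, rose by 1.55, Smtn, smoothelin, by 0.34 and Acta2, smooth muscle actin, by 0.20. Cald1, caldesmon, fell by 0.39 (limma adjusted p = 2.91e-05) and Des, desmin, which skeletal muscle also expresses, by 0.16 (limma adjusted p = 0.0405), the last named after its value was seen. Of 4 cardiac markers 2 rose and none fell, against the same shares of all genes, with sums of 2984 to 3106 FPKM in dexamethasone libraries and 2245 to 2448 FPKM in vehicle libraries. The 4 were Actc1, Tnnt2, Myl4 and Ankrd1, and none is among the defining heart genes named below. Tnnt2 rose by 0.33, and Myl4 and Ankrd1 were not called. Actc1, the cardiac actin that developing skeletal muscle also expresses, rose by 0.90. Levels of the defining heart genes Myh6, Nppa, Nppb, Tnni3, Myl7, Ryr2, Pln and Mybpc3, and Myh11, Cnn1 and Myocd of smooth muscle, were not analysed here.

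Genes whose pattern over the 9 libraries was most like that of a member were found by the root mean square difference of log2 values, each centred on its own mean. For Myh7 these were Ccn2 (0.113), a connective tissue growth factor, Per1 (0.114), a clock gene, Tns1 (0.115), Col4a1 (0.120) and Tgfbr3 (0.143). For Myh1 they were Nrap (0.0205), an actin-binding protein of nascent myofibrils, Ablim3 (0.0416), Bcl2l1 (0.0446), Chst11 (0.0516) and Etl4 (0.0542). For Myh10 they were Nfkb1 (0.0255), Sap130 (0.0368), Alox5 (0.0379), Map1a (0.0399) and Aco1 (0.0401). All of these likenesses are descriptions over the same 9 libraries in 3 groups.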

How the data were processed

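RNA of 9 C2C12 myotube libraries was sequenced from TruSeq Stranded mRNA libraries, per the labels' protocols. Among tools, the submitters' processing notes list STAR 2.7.10a and featureCounts, and among genome builds GRCm39, that is mm39, without roles. The deposited values are named counts but are fractional, so they were taken to be FPKM as scaled by the authors. TPM of a filtered table cannot be told apart from this. The conversion, the transcript lengths and the filter on low values are not given in the sources used here, and whole reads could not be recovered, so depth is unknown. The cell line field rises by 1 from sample to sample, so the titles, which name C2C12 throughout, were followed.

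A model of log2(FPKM + 0.1) was fitted in R 4.3.3 by limma 3.58.1 with an intensity trend, 1 mean per group over 9 libraries and Benjamini-Hochberg adjustment over 10716 genes at 0.05. The code was tested on simulated data. Ratios were tested by exact permutation (scipy 1.17.1). The likeness search left out genes averaging under 5 FPKM. Members, lists and tests were chosen with earlier results of these data known. All members were named, with at most 4 genes per list by smallest p for dexamethasone against vehicle, the 5 genes most like each of Myh7, Myh1 and Myh10, and Fkbp5. Genes named outside this rule are said to be so or are markers whose levels were not analysed here. Alternatives covered the pseudocount, scaling, filter, variance prior, samples in the fit, replicate block, GC and length, and each library left out. Sequences came from RefSeq promoters (GRCm38.p6) and GENCODE transcripts of GRCm38, an earlier build than the authors used.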

Additional observations from a re-analysis of the deposited data

How the results depend on the processing

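The counts of members called, in all and higher, stayed within 1.5 times under each alternative run. Isoform shares were rerun only with 1 library left out. That cannot move a mean of 3 libraries by as much as their SD, so it does not show how stable the shares are. For dexamethasone against vehicle, 1 member in place of 2 was called lower with median-ratio scaling, equal sums or quantile normalization, since Myh10 lost its call, and leaving out 1 library gave 1 to 2. Dexamethasone plus THSG against vehicle likewise gave 1 to 2. Scaling also moved the split of calls over all genes for dexamethasone against vehicle, with 1362 higher and 2239 lower as deposited, 1739 and 1766 under median-ratio factors, 1446 and 1975 for equal sums, and 1784 and 1751 after quantile normalization. Myh4, not called, turned to 0.025 under median-ratio factors and 0.014 after quantile normalization, and spanned -0.062 to 0.0075 with a library left out. Differences between dexamethasone plus THSG and dexamethasone changed sign within their error: Myh3 gave -0.0018 for equal sums and -0.029 after quantile normalization, and Myh9 gave -0.00089, -0.041 and, with GC and length correction with or without the replicate block, -0.011. With a library left out they spanned -0.048 to 0.034 for Myh1, -0.11 to 0.022 for Myh2, -0.019 to 0.034 for Myh3, -0.055 to 0.015 for Myh4, -0.12 to 0.043 for Myh8, -0.023 to 0.061 for Myh9, -0.060 to 0.029 for Myh10 and -0.12 to 0.049 for Myh13, while Myh7 kept its sign at 0.019 to 0.20. The log2 ratios spanned -0.015 to 0.16 for Myh3 to Myh8 and -0.0047 to 0.056 for Myh9 to Myh1. The cause of these changes was not tested.

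Over all genes, deviations of libraries with the same replicate number correlated at -0.0862 to 0.107, and with other numbers at -0.123 to 0.114. Replicate 2 was the highest of all 3 groups for Myh7, Myh8 and Myhas, but for no other member. For dexamethasone against vehicle, a replicate block gave a smaller SE for Myh1, Myh7 and Myh8 and a larger one for the other members. Whether the numbers pair the samples was thus not settled. With the replicate block 7, 0 and 7 members were called for dexamethasone against vehicle, dexamethasone plus THSG against dexamethasone, and dexamethasone plus THSG against vehicle. With the block and GC and length correction the last count was 6, as Myh13 had 0.36 (limma adjusted p = 0.0657). Unknown depth and 3 libraries a group limit how small a difference could be seen.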
